A study of Mus musculus with 6 samples.

Results

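The nuclear genes for the subunits of respiratory complexes II to V and for cytochrome c were followed in the kidney after cisplatin. The members are the protein-coding genes whose mouse symbol is Sdha, Sdhb, Sdhc or Sdhd, begins with Uqcr, with Cox and a digit from 4 to 8, or with Atp5, or is Cyc1 or Cycs. This symbol rule found 52 of the 56691 genes counted: 4 of complex II, 9 of complex III, 1 for cytochrome c, 19 of complex IV and 19 of complex V. All 52 were in the count files and 46 had enough counts to be tested. The rule also takes in Cox5b-ps, a copy of Cox5b that the annotation lists as protein-coding, Cox7a2l, a paralogue of the complex IV subunit Cox7a2, and a readthrough record that carries the symbol Atp5po a second time.

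Kidneys of male C57BL/6 mice were sequenced as total RNA, the mice being 9 weeks old when treatment began and examined at week 7. The control group of 3 mice was given saline, and the cisplatin group of 3 mice was given 4 intraperitoneal injections of 8 mg/kg cisplatin, a platinum drug that damages the proximal tubule. Each library came from 1 mouse, and no transgene or deletion is given for either group. The libraries held 21891855 to 26627554 counted read pairs, of which mitochondrial ribosomal RNA took 41.1% to 48.6%. Proximal tubule markers were abundant in every library, with the summed level of 20 markers between 44433 and 45630 CPM (counts relative to library size, scaled with TMM factors) in control and between 10116 and 11582 CPM in cisplatin kidneys. The share of pairs that fell in no annotated gene was 4.63% to 4.86% in control libraries and reached 6.09% to 9.32% after cisplatin.

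The respiratory chain passes electrons along the inner mitochondrial membrane. Complex II (succinate dehydrogenase) takes them from succinate, complex III (the cytochrome bc1 complex) hands them to the small soluble carrier cytochrome c, complex IV (cytochrome c oxidase) gives them to oxygen, and complex V (ATP synthase) uses the proton gradient that complexes I, III and IV build. The proximal tubule is rich in mitochondria and depends on this pathway for reabsorption. All subunits of complex II and cytochrome c are encoded in the nucleus, whereas complexes III, IV and V also contain subunits made from the mitochondrial genome.

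The stretches of DNA before the start of these genes are given here for the members that moved most and for members that carry a shared motif. Sequences are those of RefSeq on GRCm38.p6, a different build from the mm39 genome of the counts, and run 5′ to 3′ on the strand of the gene. Capitals mark GCGCANGCG, the core of the site of nuclear respiratory factor 1 (NRF1), on either strand. The motif is nearly its own reverse complement, so that matches on both strands can overlap. Cycs (cytochrome c) held the motif once in the 250 bases before its start, and Cox6b2 held no match.
Cycs, chr6:50566570-50566819, minus strand: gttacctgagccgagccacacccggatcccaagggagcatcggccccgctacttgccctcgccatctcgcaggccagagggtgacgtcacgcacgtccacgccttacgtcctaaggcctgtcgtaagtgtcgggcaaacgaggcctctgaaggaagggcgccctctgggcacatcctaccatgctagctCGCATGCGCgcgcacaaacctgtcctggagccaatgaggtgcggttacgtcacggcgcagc
Cox6b2, chr7:4753095-4753344, minus strand: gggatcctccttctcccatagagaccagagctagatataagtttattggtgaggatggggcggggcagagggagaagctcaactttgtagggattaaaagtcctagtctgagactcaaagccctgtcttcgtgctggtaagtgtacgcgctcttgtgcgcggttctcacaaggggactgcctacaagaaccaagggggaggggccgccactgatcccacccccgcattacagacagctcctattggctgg
Sdha, chr13:74350315-74350354, minus strand: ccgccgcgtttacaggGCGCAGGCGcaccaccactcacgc
Cox6a1, chr5:115349097-115349136, minus strand: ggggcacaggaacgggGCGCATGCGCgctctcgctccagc
Atp5me, chr5:108434426-108434465, minus strand: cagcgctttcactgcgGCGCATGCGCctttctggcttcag
Atp5mc2, chr15:102671066-102671105, minus strand: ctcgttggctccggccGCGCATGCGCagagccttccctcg
Windows from 250 bases before to 50 bases after the start were at hand for 36 members, 39 windows in all; Sdhc, Cyc1, Uqcrb, Uqcrc2, Uqcrq, Cox4i1, Cox4i2, Cox5b-ps, Cox6a2, Cox6c, Cox8c, Atp5f1a, Atp5if1, Atp5mj and Atp5mk were not matched. The NRF1 motif was in 13 of the 39 windows (33.3%), against 6.25% of all 32851 windows of that length. The motif CCGGAAG, read by GABP, was in 12 member windows (30.8%, against 8.86%), AANATGGCG (YY1) in 3 (7.69%, against 2.38%) and NAAGGTCA (estrogen-related receptors) in 5 (12.8%, against 4.69%). Both strands were searched for each motif, and whether base composition sets these shares was not tested. Members with and without the NRF1 motif had the same median change: the median log2 fold change was -0.54 in the 13 tested members with it and -0.54 in the 21 tested members without it. Cycs, with the largest fall, and Atp5mc2, with almost no change, both carried it.

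Transcripts of these complexes were lower in the cisplatin kidney as a group. Of the 46 tested members, 39 were lower, 1 was higher and 6 did not pass (edgeR quasi-likelihood test, adjusted p under 0.05 over all genes), beside 22.8% of all 15662 genes tested that were lower and 24.5% that were higher. In 37 tested members the highest cisplatin library was still under the lowest control, which held for 27.6% of all genes tested; Cox7a1 and Atp5mk passed as lower although their groups overlapped. The median log2 fold change of the members was -0.54, against 0.05 for all genes. The summed level of all members was 11456, 12409 and 12078 CPM in the control libraries and 6852, 7939 and 8907 CPM in the cisplatin libraries. The sums of the groups did not overlap, and the cisplatin mean was 65.9% of the control mean. These directions rest on the scaling of the libraries. Scaled to library totals alone, 15 of the 46 members were lower and 3 (Atp5mc2, Cox6b2 and Cox7a2l) were higher. Beside them, 1375 of all 15662 genes tested were lower and 8508 were higher, and the median of all genes moved from 0.05 to 0.48. Relative to that median the members stood at -0.59 with TMM factors and at -0.60 with library totals, and 44 of 46 lay below it under both. In bulk kidney RNA, fewer cells of a type and less RNA per cell cannot be told apart.

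**Figure D1:**
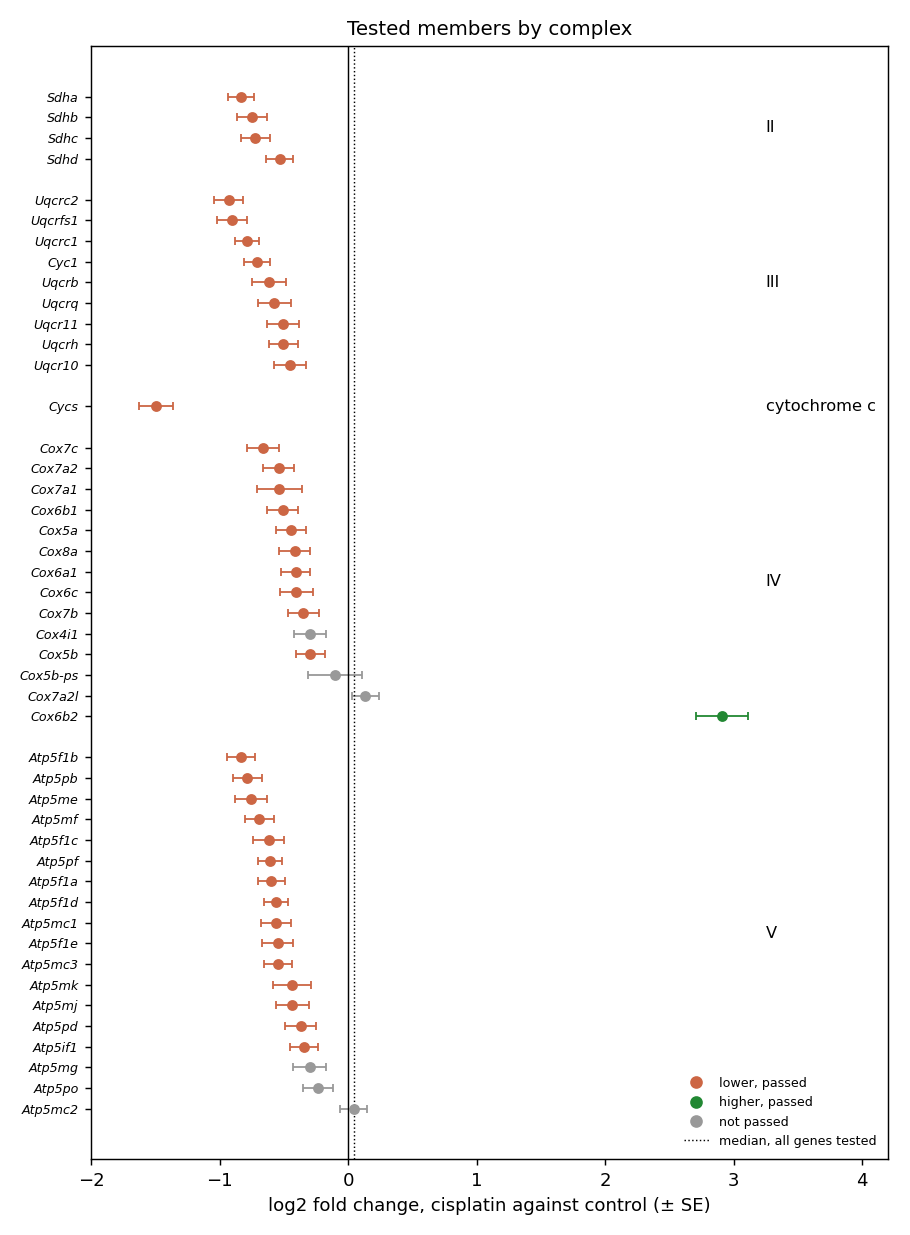
Log2 fold change of cisplatin against control with its standard error (horizontal axis) for the 46 tested members, grouped by complex and ordered within it. Points are coloured by whether the gene passed the test, and the dotted line is the median of all genes tested (0.05). Cycs lies lowest at -1.49 and Cox6b2 alone lies far to the right at 2.91; with library totals the median of the members moves to -0.12 and that of all genes to 0.48.

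In complex II all 4 subunits fell, by 0.53 to 0.83 on the log2 scale, and 3 of the 4 still passed with library totals. Sdha, the flavoprotein that oxidises succinate, measured 538.3, 624.5 and 578.6 CPM in control and 300.2, 344.3 and 333.4 CPM in cisplatin libraries. No cisplatin library reached the lowest control, and Sdha fell by 0.83 ± 0.10 on the log2 scale (SE, n = 3 per group, edgeR adjusted p = 8.4e-05). Sdhb, the iron-sulphur subunit, measured 226.4, 239.3 and 230.3 CPM in control and 115.1, 141.9 and 157.0 CPM in cisplatin libraries (log2 fold change -0.75 ± 0.12, edgeR adjusted p = 3.7e-04). Its groups did not overlap either. The membrane anchors followed, Sdhc with a log2 fold change of -0.72 and Sdhd with the smallest fall of the complex. Sdhd measured 202.2, 206.3 and 212.8 CPM in control and 124.9, 140.1 and 163.9 CPM in cisplatin libraries, which did not overlap (log2 fold change -0.53 ± 0.11, edgeR adjusted p = 0.0021).

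In complex III all 9 subunits fell, with larger falls in the core than in the small accessory subunits. The 4 core or catalytic members had log2 fold changes of -0.71 to -0.93 (median -0.85) and the 5 accessory members of -0.45 to -0.62 (median -0.51). Uqcrc2, a core protein of the matrix arm, measured 302.6, 318.1 and 316.6 CPM in control and 148.7, 151.8 and 191.6 CPM in cisplatin libraries. The groups were far apart, with a log2 fold change of -0.93 ± 0.11 (SE, n = 3 per group, edgeR adjusted p = 7.0e-05). Uqcrfs1, the Rieske iron-sulphur protein, measured 225.9, 253.1 and 245.2 CPM in control and 111.1, 127.4 and 148.8 CPM in cisplatin libraries (log2 fold change -0.90 ± 0.11, edgeR adjusted p = 1.0e-04). Uqcrc1, the partner core protein, measured 253.4, 279.1 and 255.3 CPM in control and 140.7, 155.0 and 159.9 CPM in cisplatin libraries (log2 fold change -0.79 ± 0.09, edgeR adjusted p = 6.1e-05). Cisplatin libraries of both genes lay below every control.

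Cyc1, the haem protein that passes electrons to cytochrome c, measured 158.7, 182.8 and 167.5 CPM in control and 92.4, 109.7 and 109.3 CPM in cisplatin libraries (log2 fold change -0.71 ± 0.10, edgeR adjusted p = 2.2e-04). The least changed subunit of the complex was Uqcr10, a small accessory protein. It measured 180.3, 191.0 and 192.5 CPM in control and 113.5, 136.1 and 162.3 CPM in cisplatin libraries, still without overlap (log2 fold change -0.45 ± 0.12, edgeR adjusted p = 0.0113). The ratio of the summed core to the summed accessory transcripts, which no library scaling can move, was 1.10, 1.18 and 1.08 in control and 0.945, 0.924 and 0.831 in cisplatin libraries. All cisplatin ratios lay below all control ratios, and no test was made on this ratio. With library totals 4 of the 9 subunits passed as lower.

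Cytochrome c itself showed the deepest fall of all members. Cycs, which carries electrons from complex III to complex IV and also triggers the apoptosome when it leaves the mitochondrion, measured 247.2, 239.5 and 268.6 CPM in control and 74.97, 84.82 and 108.7 CPM in cisplatin libraries. The highest cisplatin library stood at less than any control, and the cisplatin mean was 35.6% of the control mean. The log2 fold change was -1.49 ± 0.13 (SE, n = 3 per group, edgeR adjusted p = 8.6e-06), within the lowest 2.68% of all genes tested, and -1.08 with library totals. Cycs also fell against its electron donor: the ratio of Cycs to Cyc1 counts was 1.56, 1.31 and 1.60 in control and 0.811, 0.773 and 0.994 in cisplatin libraries (two-sided exact permutation p = 0.1, the smallest that 3 against 3 allow). The ratio is not scaled to transcript length, and only its difference between groups is read. Hccs, the enzyme that attaches haem to both proteins, did not pass (log2 fold change -0.27, edgeR adjusted p = 0.0839). The germ cell form Cyct was at 0 in all libraries.

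Complex IV had the smallest median change of the complexes. Of its 14 tested members 10 were lower, 1 was higher and 3 did not pass, with a median log2 fold change of -0.41. With library totals this median became 0.01 and 1 of the 14 was lower, beside 1375 of all 15662 genes tested. The number lower also fell to 4 without control 2, and to 6 without control 3 or without cisplatin 2. Cox4i1, the ubiquitous form of the largest nuclear subunit, measured 492.1, 557.4 and 539.1 CPM in control and 364.7, 434.3 and 494.4 CPM in cisplatin libraries. The highest cisplatin library overlapped the lowest control, and the log2 fold change of -0.30 ± 0.12 did not pass (edgeR adjusted p = 0.0671; 0.12 with library totals). It did pass as lower with DESeq2 (adjusted p = 0.0249), with edgeR when low counts were not filtered (adjusted p = 0.0202) and with edgeR without cisplatin 3 (adjusted p = 0.0045). Cox5a, a matrix-side subunit, measured 143.7, 171.4 and 166.3 CPM in control and 100.5, 123.3 and 129.7 CPM in cisplatin libraries, with no overlap (log2 fold change -0.45 ± 0.12, edgeR adjusted p = 0.00875). Cox5b, which binds zinc, measured 185.2, 205.6 and 194.7 CPM in control and 134.7, 168.8 and 173.9 CPM in cisplatin libraries. It passed narrowly as lower (log2 fold change -0.29 ± 0.11, edgeR adjusted p = 0.048) and stood at 0.12 with library totals. The call of Cox5b was lost with upper-quartile factors and when any library other than cisplatin 3 was left out. It was also lost with a filter of at least 10 counts in every library (edgeR adjusted p = 0.0651) and with counts that ignore the strand (edgeR adjusted p = 0.0509).

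The remaining ubiquitous subunits of complex IV fell by 0.35 to 0.66 on the log2 scale, although Cox6a1 and Cox7b stood at 0.01 and 0.07 with library totals and Cox8a at -0.00193. The call of Cox7b was also lost with upper-quartile factors and when any library other than cisplatin 3 was left out. That of Cox8a was lost with upper-quartile factors and without control 2, control 3 or cisplatin 2, and that of Cox6a1 without control 2. Cox7c, a small membrane subunit, fell most. It measured 140.1, 145.1 and 143.7 CPM in control and 74.04, 89.51 and 107.2 CPM in cisplatin libraries, well apart from each other (log2 fold change -0.66 ± 0.12, edgeR adjusted p = 0.00126). Cox7c has 3 near-identical copies elsewhere in the genome, so that some of its reads may not have been counted. Cox7a2l did not follow the subunits. It measured 68.86, 66.91 and 66.84 CPM in control and 64.19, 73.62 and 84.37 CPM in cisplatin libraries, which overlapped (log2 fold change 0.13, edgeR adjusted p = 0.315; -0.00184 without cisplatin 3). Against its paralogue Cox7a2, a subunit of complex IV, its ratio of counts rose from 0.239, 0.217 and 0.218 to 0.370, 0.363 and 0.346, without overlap (exact permutation p = 0.1, the smallest possible). Cox7a2l has 1 near-identical copy in the genome (98.4%) and Cox7a2 has none, so that some reads of Cox7a2l may not have been counted. Cox5b-ps was near 2 CPM in both groups (log2 fold change -0.11, edgeR adjusted p = 0.703; 0.32 with library totals and 0.02 without control 2), and its reads cannot be cleanly told apart from those of Cox5b, which it matches at 99.2%.

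Complex IV has subunits with a ubiquitous and a tissue-restricted form, and the restricted form could be tested for COX6B and COX7A. Every cisplatin library held a larger share of the restricted form than every control library in the COX6B pair, while the shares overlapped in the COX7A pair. Cox6b2, known mainly from testis, measured 1.14, 1.46 and 1.68 CPM in control and 8.37, 11.9 and 11.8 CPM in cisplatin libraries, from 27, 30 and 35 counts and 243, 354 and 271 counts. Every cisplatin library stood several-fold above every control, with a log2 fold change of 2.91 ± 0.20 (SE, n = 3 per group, edgeR adjusted p = 1.6e-06), within the highest 0.939% of all genes tested. Its ubiquitous counterpart Cox6b1 measured 291.1, 323.6 and 304.4 CPM in control and 178.6, 221.0 and 246.4 CPM in cisplatin libraries (log2 fold change -0.51 ± 0.12, edgeR adjusted p = 0.00557). Scaled to transcript length, Cox6b2 made up 0.507% ± 0.089 (SD, n = 3) of the pair in control and 5.15% ± 0.36 (SD, n = 3) in cisplatin kidneys. The shares did not overlap, though 3 against 3 cannot go below p = 0.1 (two-sided exact permutation p = 0.1, 0.167 after Benjamini-Hochberg adjustment over 5 families). Testis markers were at or near 0: of 6 only Prm1 had any count, with a sum of at most 0.0689 CPM in a library. Cox6b2 has no near-identical copy in the genome, and its exons overlap no exon of another annotated gene.

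**Figure D2:**
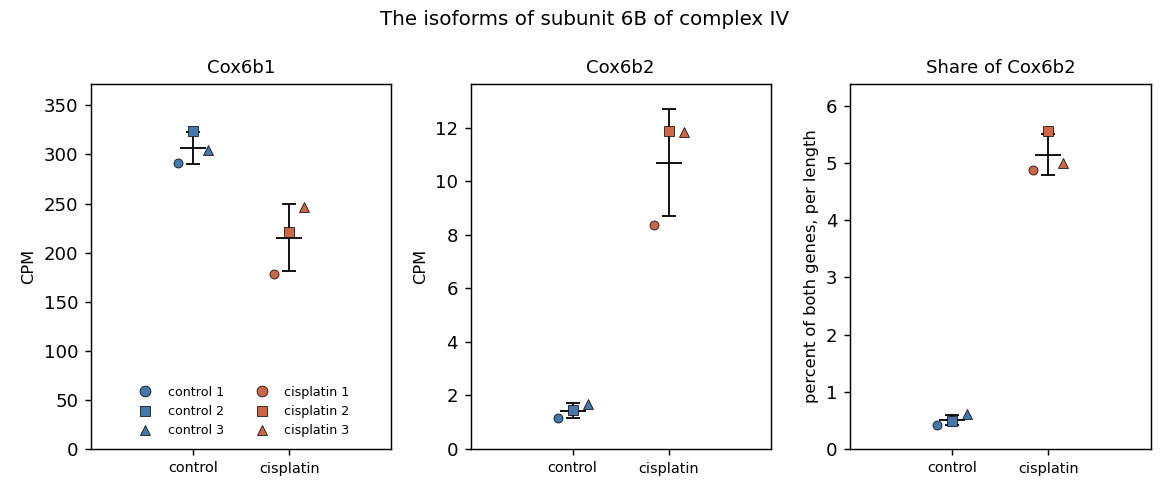
Level of Cox6b1 and of Cox6b2 in CPM (TMM-scaled) and share of Cox6b2 in the pair in percent, scaled to transcript length, for each control and cisplatin library; bars are the mean and SD of 3 libraries. Cox6b1 was lower in all cisplatin libraries (178.6 to 246.4 against 291.1 to 323.6 CPM) while Cox6b2 was higher (8.37 to 11.9 against 1.14 to 1.68 CPM), and the share rose from 0.507% to 5.15%.

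The heart and skeletal muscle form Cox7a1 fell by about the same log2 difference as Cox7a2. Cox7a1 measured 9.79, 10.3 and 7.60 CPM in control and 5.82, 5.30 and 8.07 CPM in cisplatin libraries, with cisplatin 3 above control 3 (log2 fold change -0.54 ± 0.18, edgeR adjusted p = 0.0268). The call was lost with upper-quartile factors, with library totals (-0.12), and without control 1, control 2, cisplatin 1 or cisplatin 2. Cox7a2 measured 287.8, 308.8 and 306.8 CPM in control and 173.4, 202.9 and 244.1 CPM in cisplatin libraries, with no overlap (log2 fold change -0.54 ± 0.12, edgeR adjusted p = 0.00419). The share of Cox7a1 was 5.36% ± 0.85 (SD, n = 3) in control and 5.39% ± 0.69 (SD, n = 3) in cisplatin kidneys, with overlapping libraries (exact permutation p = 0.9, where 3 against 3 cannot go below 0.1).

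The remaining restricted forms were too rare to test. Cox6a2 of muscle had 7, 17 and 19 counts in control and 5, 3 and 2 in cisplatin libraries, and its share of the COX6A pair went from 0.206% to 0.0515% without overlap (exact permutation p = 0.1, adjusted 0.167). Cox8b had 5, 12 and 2 counts in control and none in cisplatin libraries (p = 0.1 by the same exact test, adjusted 0.167). Cox4i2, an oxygen-responsive form of lung, had 3, 0 and 11 against 12, 10 and 6 counts and a share of at most 0.117% in any library (exact permutation p = 0.3). Cox8c had 1 count in 1 library, and Cox7b2 and the readthrough record of Atp5po had none, which allows Cox7b2 up to 0.1005 to 0.146 CPM by counting error alone. Skeletal muscle markers summed to 0.721 to 1.18 CPM in control and 1.41 to 2.36 CPM in cisplatin libraries, with Myh2 and Myh4 at 0, and cardiac markers to at most 1.70 CPM. Fat markers, a tissue that uses Cox8b and Cox7a1 as well, summed to 2.12 to 12.7 CPM in control and 1.48 to 13.3 CPM in cisplatin libraries, with Lep at 0, a sum led by Cfd at 11.02 CPM in cisplatin 1. The brown fat marker Ucp1 measured 1.09, 1.27 and 0.192 CPM in control and was at 0 in all cisplatin libraries, and Cidea measured 0.462, 1.90 and 0.0962 CPM in control and 0.344, 0.0670 and 0.0436 CPM in cisplatin libraries. Cox8b, at 0.210, 0.584 and 0.0962 CPM in control and 0 in cisplatin libraries, thus moved with Ucp1, and the part of fat in these shares was not tested.

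In complex V 15 of 18 tested members were lower and none was higher, with a median log2 fold change of -0.56; with library totals 6 were lower and Atp5mc2 was higher. The catalytic head fell, its β subunit more than its α subunit. Atp5f1b, the β subunit that makes ATP, measured 1508, 1642 and 1566 CPM in control and 790.0, 924.1 and 933.2 CPM in cisplatin libraries (log2 fold change -0.83 ± 0.11, SE, n = 3 per group, edgeR adjusted p = 1.4e-04). Atp5f1a, the α subunit, measured 1152, 1244 and 1180 CPM in control and 715.5, 817.0 and 829.5 CPM in cisplatin libraries (log2 fold change -0.60 ± 0.11, edgeR adjusted p = 8.9e-04). The groups stood apart for both genes. All 3 genes of the central stalk fell by 0.55 to 0.62 on the log2 scale. Among the peripheral stalk, Atp5pb, Atp5pf and Atp5pd fell by 0.79, 0.61 and 0.37, while Atp5po did not pass (log2 fold change -0.24, edgeR adjusted p = 0.113; 0.18 with library totals, and lower at an adjusted p of 0.0139 without cisplatin 3).

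The c ring, which turns with the proton flow, is made of identical proteins from 3 genes that differ in their targeting peptides, and the genes differed here. Atp5mc1 and Atp5mc3 fell by 0.56 and 0.55 on the log2 scale. Atp5mc2 measured 21.10, 20.94 and 23.08 CPM in control and 19.56, 23.02 and 24.60 CPM in cisplatin libraries. The groups overlapped and the log2 fold change of 0.04 did not pass (edgeR adjusted p = 0.755; -0.06 without cisplatin 3). Atp5mc2 has 3 near-identical copies in the genome and Atp5mc1 has 2, which makes both counts uncertain. Of the 5 membrane accessory subunits 4 fell, by 0.44 to 0.76, and Atp5mg did not pass (log2 fold change -0.30, edgeR adjusted p = 0.0794; 0.12 with library totals and 0.15 with counts that ignore the strand). It was lower at an edgeR adjusted p of 0.0167 when low counts were not filtered and of 0.00148 without cisplatin 3. Atp5mg has 8 near-identical copies, the most of any member.

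Atp5if1, the inhibitor that holds ATP synthase from running backwards, fell less than the catalytic subunit. It measured 172.2, 174.4 and 179.9 CPM in control and 120.8, 133.1 and 161.1 CPM in cisplatin libraries (log2 fold change -0.34 ± 0.11, edgeR adjusted p = 0.0253; 0.07 with library totals). All cisplatin libraries were below control, but the call was lost with upper-quartile factors, without any one of the control libraries and without cisplatin 2. The ratio of Atp5if1 to Atp5f1b counts, which needs no scaling, was 0.114, 0.106 and 0.115 in control and 0.153, 0.144 and 0.173 in cisplatin libraries, all cisplatin values above all control values (two-sided exact permutation p = 0.1, the smallest possible). This ratio, Cycs to Cyc1 and Cox7a2l to Cox7a2 were the 3 single-gene ratios computed, and after Benjamini-Hochberg adjustment each p was still 0.1.

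The complexes did not fall in proportion. The summed level of complex II in cisplatin was 59.7% of control, of complex III 62.3%, of complex V 64.3% and of complex IV 76.3%, against 79.9%, 83.1%, 85.9% and 102% with library totals. Within each library the ratio of complex II to complex IV was 0.405, 0.403 and 0.398 in control and 0.329, 0.323 and 0.297 in cisplatin. The ratio of complex III to complex IV was 0.627, 0.603 and 0.618 in control and 0.519, 0.488 and 0.503 in cisplatin, and that of complex V to complex IV was 1.88, 1.84 and 1.83 against 1.62, 1.57 and 1.497. Cycs to complex IV was 0.0862, 0.0756 and 0.0875 in control and 0.0384, 0.0365 and 0.0407 in cisplatin. In each of these ratios all cisplatin libraries lay below all control libraries. The ratio of complex III to complex V overlapped between the groups (0.329 to 0.337 against 0.310 to 0.336), and that of complex II to complex V was slightly lower (0.216 to 0.220 against 0.198 to 0.205). These ratios are descriptions of sums led by their most abundant members, and no test was made on them.

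**Figure D3:**
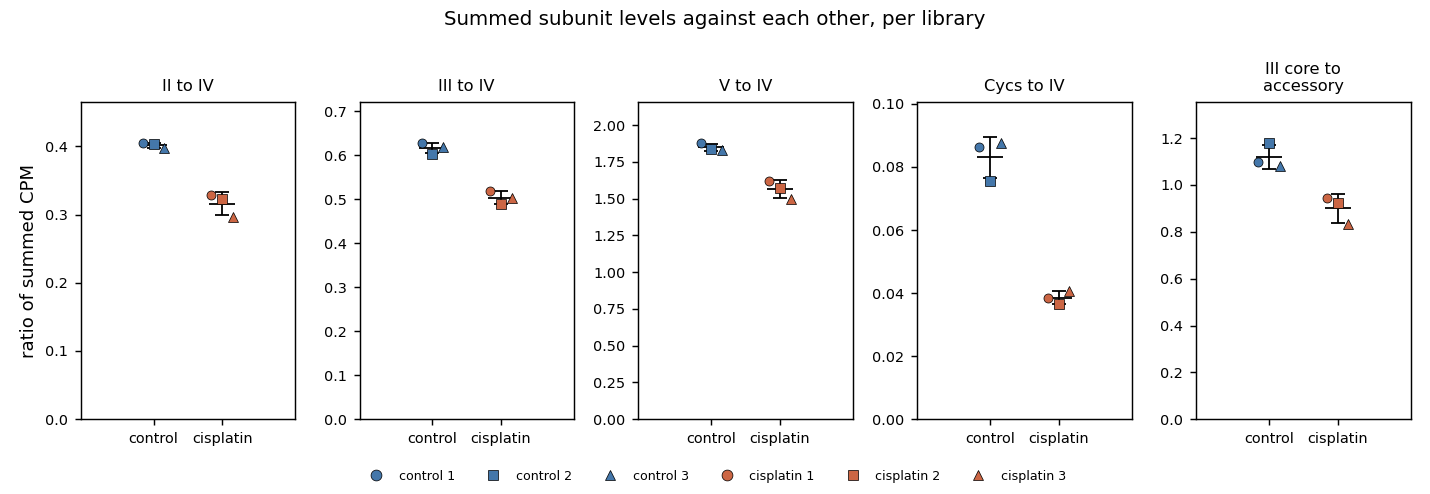
Ratio of summed CPM between complexes, of Cycs to complex IV, and of core to accessory subunits of complex III, per library, with mean and SD of 3 libraries; each vertical axis starts at 0. In every panel the cisplatin libraries lie below the control libraries, for example 0.297 to 0.329 against 0.398 to 0.405 for complex II to complex IV.

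The cisplatin libraries differed in level across the members, and part of this lay in the scaling. With TMM factors (1.26, 1.18 and 1.05 in cisplatin 1, 2 and 3), cisplatin 1 had the lowest cisplatin value in 44 of the 46 tested members, and cisplatin 3 the highest in 41. Against the control mean, the median member stood at a log2 difference of -0.74 in cisplatin 1, -0.55 in cisplatin 2 and -0.31 in cisplatin 3. With library totals cisplatin 1 was lowest in 35 members, cisplatin 3 was highest in 30 and lowest in 7, and the medians were -0.20, -0.11 and -0.03. Cisplatin 1 also had the largest share of pairs in no annotated gene (9.32%), the smallest share of mitochondrial ribosomal RNA (41.1%) and the highest sum of 8 fibroblast markers (671.5 CPM, against 405.1 and 426.3 CPM in the other cisplatin libraries). Whether these take part in the difference between libraries was not tested. Without cisplatin 1, 36 members were lower and Cox7a2l joined Cox6b2 as higher, and without cisplatin 3, 43 were lower.

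Among these members short transcripts had the smaller median fall. The 18 members with a canonical transcript of up to 1000 bases had a median log2 fold change of -0.45, against -0.62 for the 24 longer ones, and over these 42 members length and change had a Spearman correlation of -0.40 (restricted forms, Cox7a2l and Cox5b-ps left out). Over all 13634 protein-coding genes tested it was 0.06, and genes up to 1000 bases had a median of -0.05 against 0.04 for longer ones. The points share the same 6 libraries. Near-identical copies in the genome, present for 13 members, went with a smaller fall as well: the median was -0.41 in 11 of these 42 members with such a copy and -0.56 in the 31 without. The core subunits of complex III and the catalytic head of complex V are also among the longer transcripts, but some accessory subunits are long as well. In complex III the accessory Uqcr11 has 2746 bases and no near-identical copy, with a log2 fold change of -0.51. The core subunit Uqcrc2 has 2322 bases and no such copy either, with a log2 fold change of -0.93. The parts of role, length and copies in the size of the fall were not tested.

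Other genes of the pathway moved mostly in the same direction, complex I to a similar depth and mitochondrial ribosomal proteins less. Of 37 tested nuclear subunits of complex I, 33 were lower and none was higher (median log2 fold change -0.56), and the ratio of the summed members to complex I overlapped between groups (2.91 to 3.02 in control, 2.89 to 2.97 in cisplatin). Of 77 tested mitochondrial ribosomal proteins 57 were lower and 2 higher (median -0.41), and the ratio of the members to them was lower in every cisplatin library (5.02 to 5.35 against 5.52 to 5.92). Subunits that the symbol rule misses fell too: Ndufa4, now counted to complex IV, had a log2 fold change of -0.90 (edgeR adjusted p = 2.6e-04) and Dmac2l, a factor of complex V, of -0.43 (edgeR adjusted p = 0.00892). Of the 6 mitochondrial genes for complexes III to V, 4 were tested and lower, among them mt-Cytb, the membrane core of complex III, from 6349 to 2757 CPM (log2 fold change -1.20 ± 0.12, edgeR adjusted p = 2.5e-05). The abundantly counted mt-Co1 of complex IV went from 17293 to 10056 CPM (log2 fold change -0.78 ± 0.15, edgeR adjusted p = 0.00183). By contrast mt-Co3 and mt-Co2 of the same complex had few counts. Their means went from 5.23 to 2.70 CPM and from 4.9 to 2.6 CPM, and whether their reads were fully counted was not tested.

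Assembly factors build the complexes but do not stay in them. Of 47 tested factors for complexes II to V, 28 were lower and none was higher (median log2 fold change -0.40). For complex II 1 of 4 was lower, a share near the 22.8% of all genes. It was Sdhaf2, which helps to attach the flavin to Sdha (log2 fold change -0.33, edgeR adjusted p = 0.0156). For complex III 5 of 9 were lower, led by Uqcc1 (-0.83, edgeR adjusted p = 5.0e-05) and the Rieske protein translocase Bcs1l (-0.82, edgeR adjusted p = 1.8e-04). For complex IV 19 of 29 were lower, led by Lrpprc, which stabilises mitochondrial mRNA (-0.96, edgeR adjusted p = 9.0e-06), and Cox15, which makes haem a (-1.08, edgeR adjusted p = 1.9e-05). For complex V 3 of 5 were lower, led by Tmem70 (-0.78, edgeR adjusted p = 2.3e-04) and Atpaf2 (-0.42, edgeR adjusted p = 0.0109).

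Other mitochondrial genes were mostly lower, and of the known regulators of this programme more were lower than higher. Of 20 genes for import, cristae and matrix proteins 16 were lower and none higher (median log2 fold change -0.48), most deeply the chaperonin pair Hspd1 (-1.53, edgeR adjusted p = 1.9e-06) and Hspe1 (-1.07, edgeR adjusted p = 5.4e-05). Of 17 regulators 7 were lower (41.2%, against 22.8% of all genes tested) and 2 higher (11.8%, against 24.5%), with a median of -0.26. Esrra, an estrogen-related receptor that drives respiratory genes, went from 53.7 to 32.2 CPM (log2 fold change -0.74, edgeR adjusted p = 1.5e-04) and Ppard, a fatty acid receptor, had a log2 fold change of -1.07 (edgeR adjusted p = 3.7e-04). Nrf1 itself was higher, from 11.5 to 14.5 CPM (log2 fold change 0.33, edgeR adjusted p = 0.0146), as was Myc (1.07, edgeR adjusted p = 0.0248). The groups overlapped for Myc, with 1.18, 3.36 and 1.83 CPM in control and 5.06, 5.26 and 2.75 CPM in cisplatin libraries.

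Cell type markers moved with the groups as well. Of 20 proximal tubule markers 18 were lower and none higher, with a median log2 fold change of -0.96, led by Acsm2 (-2.70, edgeR adjusted p = 1.8e-07) and Kap (-6.24, edgeR adjusted p = 2.5e-07), which alone held 21207 of the mean 44841 CPM in control. Of 6 markers of the thick ascending limb, likewise rich in mitochondria, 3 were lower and 2 higher, and their sum ran from 4108 to 4379 CPM in control and from 2791 to 3324 CPM in cisplatin libraries. Macrophage markers were higher in 8 of 9, with a sum of 169.2 to 196.6 CPM in control and 359.2 to 471.6 CPM in cisplatin libraries, and fibroblast markers in 6 of 8, with 207.1 to 256.4 and 405.1 to 671.5 CPM. None of the markers of these 4 lists was at 0 in all libraries. Other lists moved too: markers of collecting duct principal cells were higher in 5 of 6, of T cells in 4 of 5 tested, and of smooth muscle and pericytes in 5 of 8 with 1 lower, while 3 of 5 markers of the distal convoluted tubule and 3 of 6 of endothelium were lower. Intercalated cell and podocyte markers were higher in 2 of 6 each, not far from the 24.5% of all genes tested that were higher. Of B cell markers 1 of 2 tested was lower, too few to set beside the 22.8% of all genes that were lower. No tested marker of erythroid cells (5), fat (4), cardiac muscle (1) or adrenal gland (1) passed, and 1 of 2 tested skeletal muscle markers was higher, likewise too few to compare. The part of cell type make-up in the members' changes was not tested.

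**Figure D4:**
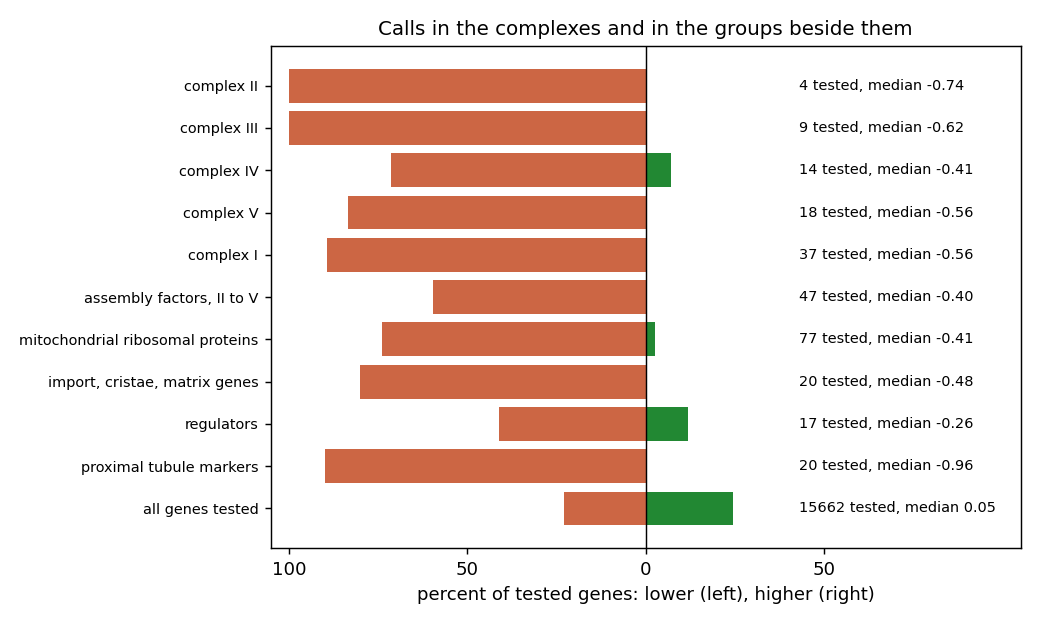
Percent of tested genes lower (left) and higher (right) in cisplatin for complexes II to V, for the groups set beside them and for all genes, with the number tested and the median log2 fold change of each. All tested genes of complexes II and III were lower with TMM factors, against 71.4% in complex IV, 83.3% in complex V, 89.2% in complex I and 22.8% of all genes. With library totals 3 of 4 in complex II and 4 of 9 in complex III remained lower, beside 1375 of all 15662 genes tested.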

How the data were processed

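The deposited files hold, per the file headers and layout, STAR gene counts of read pairs; the authors trimmed adapters with Cutadapt, aligned 150-base pairs to mm39 with STAR and left the counts unnormalized. Aligner settings and annotation were not given in the sources used here. Since the library kit keeps the strand, the counts of the transcript strand were taken, which held 96.7% to 97.2% of the stranded counts. Symbols and biotypes came from GENCODE release M39, which has 56017 of the 56691 gene IDs. Genes were tested with edgeR 4.0.16 (filterByExpr with a minimum count of 10 and a minimum total of 15, TMM factors, quasi-likelihood F test) in R 4.3.3, with Benjamini-Hochberg adjustment over 15662 genes and a threshold of 0.05. The design has 3 mice per group, the biological coefficient of variation was 11.0%, and replicates differed by more than counting noise (chi-square per gene of 4.96 to 40.5). Count floors (3 counts) cover counting error only, while the SE of the fits and the SD take in differences between libraries.

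Shares of isoforms were computed from counts divided by the length of the canonical transcript, and ratios from counts or summed CPM. Near-identical copies were found with minimap2 2.31 (at least 95% identity over at least 50% of the transcript). Per-library values are given for core and catalytic subunits, for tested isoform pairs and for the largest changes in each complex. All members that did not pass or were not tested are named. From each list at most 2 other genes per direction, by adjusted p, are named, with mt-Co1, mt-Co2 and markers set beside the restricted forms added. Members and lists were chosen with earlier results of these data known. The fit was tested on simulated data. Alternatives were DESeq2 1.42.0, limma-voom (limma 3.58.1), other scalings, filters, counts that ignore the strand, a replicate block and leaving out each library. Promoter windows were matched by symbol or RefSeq synonym. Tables and figures were made with matplotlib 3.10.9, scipy 1.17.1 and pandas 2.3.3 under Python 3.11.15.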

Additional observations from a re-analysis of the deposited data

How the results depend on the processing

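The scaling moved more values than any other choice. With library totals 15 members were lower and 3 higher, beside 1375 lower and 8508 higher of all 15662 genes tested. Of the members, 4 lower were in complex III, 1 in complex IV and 6 in complex V. The cisplatin sums became 79.9% of control in complex II, 83.1% in complex III, 47.3% for cytochrome c, 102% in complex IV and 85.9% in complex V. The log2 fold change then turned to 0.12 for Cox4i1, 0.12 for Cox5b, 0.0718 for Atp5if1, 0.0104 for Cox6a1, 0.0658 for Cox7b, 0.32 for Cox5b-ps, 0.12 for Atp5mg and 0.18 for Atp5po. With upper-quartile factors 30 members and 5 of complex IV were lower. Leaving out each library gave 29 to 43 members lower and 1 to 2 higher, with 4 to 12 lower in complex IV; the log2 fold change ran from -0.0581 (without cisplatin 3) to 0.133 for Atp5mc2, from -0.00184 (without cisplatin 3) to 0.226 for Cox7a2l and from -0.279 to 0.0216 (without control 2) for Cox5b-ps. With counts that ignore the strand Atp5mg stood at 0.15, and the cisplatin share was 0.122% for Cox4i2 and 0.00238% for Cox8b. Among the single genes compared, 41 calls were lost and 12 gained over all alternatives. The other alternatives (DESeq2, limma-voom, DESeq2 size factors, filters, leaving out mitochondrial and the 20 highest genes) gave 38 to 43 members lower and 1 higher.

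The replicate numbers were not taken to pair the mice, and the sample titles state no pairing. Same-numbered libraries had correlated deviations of 0.133, 0.142 and 0.0997, each the best match of that library, but not every one above 0.1. Differently numbered libraries all had negative values, from -0.126 to -0.0259. Deviations were taken from the mean of each group, so a positive same-numbered value forces the others to be negative on balance. These negative values are therefore no separate observation. Whether same-numbered libraries share a batch was not tested. With the replicate number as a block 42 members were lower and 1 higher, with Cox4i1, Atp5mg and Atp5po added to the lower ones. At 3 libraries per group no exact permutation test can pass, and members with few counts were not tested. The low-count filter kept Cox4i2, Cox6a2, Cox8b and Cox8c out of the test; without it 43 of 50 members tested were lower, Cox6a2 and Cox8b among them, from a few counts each. The causes of changes when a library was left out or the strand ignored were not tested.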
